A study of Mesocricetus auratus with 7 samples.

Results

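The genes described here are those whose RNA level in fully grown germinal vesicle (GV) oocytes of golden hamsters set the wild-type libraries apart from every library of an animal carrying the mutant Mov10l1 allele. A gene was a member when its mean level was at least 2 CPM (its count as a share of the library's total count, times 1000000) over the 7 libraries and its lowest value in the 5 carrier libraries was more than 2 times its highest value in the 2 wild-type (WT) libraries, or the reverse. Genes in strict order over the 3 genotypes, with every heterozygous (HET) library between every WT and every homozygous mutant (KO) library, were left out, as was Mov10l1. Of 22285 genes in the table, 8414 reached the minimum level and 43 were members, of which 31 were higher and 12 were lower in HET and KO than in WT. The contrast of carriers with WT chose these genes, so their differences from WT are given as a description and support nothing.

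Germ cells need the RNA helicase encoded by Mov10l1 to make PIWI-interacting RNAs (piRNAs), small RNAs cut from long single-stranded transcripts that guide PIWI proteins to transposon transcripts and, in some cells, to genic transcripts. Golden hamsters carry the PIWI gene Piwil3, which mice lack. A heterozygote retains 1 intact copy of Mov10l1 and a homozygous mutant retains none.

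The study compared WT, HET and KO females. WT had 2 animals (37 and 17 weeks old), HET 2 (40 and 36 weeks) and KO 3 (45, 40 and 36 weeks). Each animal gave 1 RNA library. The paper states that 2 oocyte RNA libraries were excluded, as outliers in a principal component analysis with low complexity. Their genotypes are not given. RNA came from 6 to 12 oocytes freed from antral follicles, and 100 nt single-end reads were sequenced. The mutant allele was made with Cas9 and pairs of guide RNAs placed on either side of exon 20, descended from a single transmitting founder female, and was crossed to outbred wild-type animals before homozygotes were bred. Deposited estimated counts summed to between 24242442 (WT 1) and 33956304 (KO 2) per library, and 3 counts corresponded to 0.0884 to 0.124 CPM. WT 2 came from an animal far younger than all others, so genotype and age are not fully separate in this design.

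The 4 genomic targets of the guides, all in Mov10l1, are shown because they define the allele that HET and KO share. They are written 5′ to 3′ as the submitters gave them.
intron 19, first target: gggtatcacatgacttgggg
intron 19, second target: ggtgttgggatcatagtgggg
intron 20, first target: tctccactcttccatgtgggg
intron 20, second target: taccattacatttgtcagggg

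Mov10l1 itself was at 13.8 and 36.2 CPM in WT, 15.9 and 18.8 CPM in HET and 4.60, 6.40 and 3.26 CPM in KO. The 3 KO libraries were below all others, while both HET libraries lay between the 2 WT libraries. The gene therefore separated KO from the rest, and not WT from the carriers. Oocyte identity was checked with the 4 of 20 listed oocyte markers that could be tied to an identifier. Nobox, Kit, Dazl and Sycp3 were detected in every library, and their summed level ranged from 558 to 640 CPM in WT and from 459 to 598 CPM in the carriers. Of 15 granulosa and cumulus markers 4 had an identifier (Inha, Inhba, Inhbb and Cyp11a1), with summed levels of 0.536 and 5.35 CPM in WT and 2.91 to 18.1 CPM in the carriers. Inhba, which the rule chose for its high level in the carriers, contributed most of the sum in HET 3 and in all 3 KO libraries. Without it the sums were 0.495 and 5.32 CPM in WT and 0.646 to 7.63 CPM in the carriers, which overlapped. Cyp11a1, for steroid synthesis, and Inha, the inhibin alpha subunit, were highest in WT 2, at 3.48 and 1.46 CPM. Inhbb, the inhibin beta B subunit, was at 0 and 0.382 CPM in WT, 6.31 and 4.26 CPM in HET and 2.27, 3.06 and 0 CPM in KO. The part of follicle cells in the results was not tested. The stromal gene Col1a1 was at 0 in 6 of the 7 libraries. Csf1r, listed for blood and immune cells, was at 1470 to 2049 CPM in all libraries and did not separate them. In bulk samples, fewer cells of a type and less RNA per cell cannot be told apart.

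Most members were genes with few reads. Their mean level had a median of 3.29 CPM in the 31 genes higher in the carriers (2.00 to 20.0 CPM) and of 3.94 CPM in the 12 lower genes (2.30 to 29.5 CPM), beside a median of 20.4 CPM over all 8414 genes; these are read abundances not corrected for transcript length. Only 4 of the 43 members (9.30%) had a mean of at least 10 CPM, against 65.4% of the 8414 genes. Among the higher members, the median of the mean level was 0.289 CPM in WT and 4.45 CPM in the carriers. Where both groups were detected, the mean of the carriers was 3.67 to 32.0 times that of WT (25 genes, median 8.11). In the other 6 higher members both WT libraries held 3 counts or fewer. The carrier means of these genes were at least 26.5-fold to 59.3-fold higher than the level of 3 counts per WT library. For the lower members, the WT mean was 3.03 to 39.5 times the carrier mean in 11 genes (median 5.32). The upper end rested on WT 1, since that gene was at 14.1 CPM in WT 1 and 1.46 CPM in WT 2, and the next gene was at 11.5 times.

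**Figure D1:**
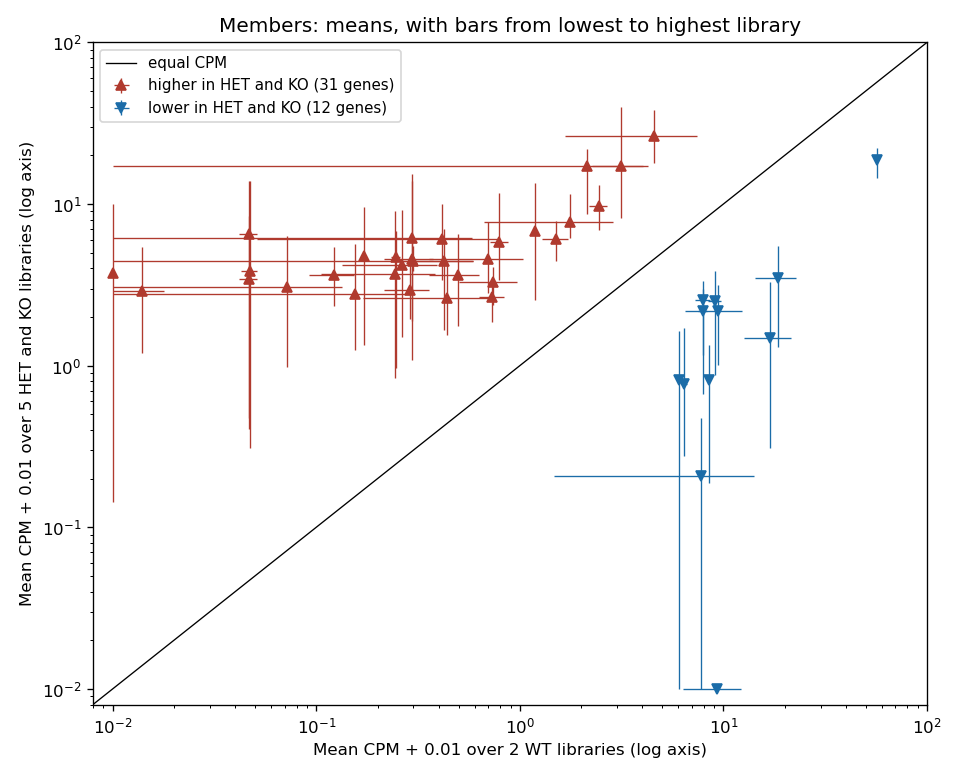
Mean CPM of each member over the 2 WT libraries (x axis) and over the 5 HET and KO libraries (y axis), both on log axes after adding 0.01, with bars from the lowest to the highest library. The 31 genes higher in the carriers lie above the line of equal CPM and the 12 lower genes lie below it, and many bars in the carriers span more than a factor of 4.

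The table pairs its identifiers with no gene symbols. Of the 43 members, 10 are named here, 9 higher and 1 lower, from the gene list the study published for KO against WT oocytes. That list was chosen on these same samples, so the presence of a member in it is not independent evidence. The named genes are described by their known roles, and the other members by their ranges, except for the 2 leading unnamed identifiers in each direction and 1 more chosen after its values were seen.

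Of the 9 higher members with names, 2 have known roles at cilia, and the share of such genes among all genes was not tested. Rpgrip1 (ENSMAUG00000005402), which encodes a scaffold protein of the photoreceptor connecting cilium, was at 0.0825 and 0.143 CPM in WT, 3.21 and 2.33 CPM in HET and 4.24, 5.45 and 2.83 CPM in KO. Its lowest carrier was 16.3 times its highest WT library, the widest gap among the higher members when libraries under 3 counts were set to that level. The gene described as tectonic family member 2 (ENSMAUG00000019849), whose product sits at the ciliary transition zone, was at 0.165 and 0.159 CPM in WT, 8.18 and 3.12 CPM in HET and 9.63, 1.44 and 1.33 CPM in KO. HET 2 and KO 1 were high, and KO 2 and KO 3 were nearest to WT.

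Pacsin2 (ENSMAUG00000018738), which encodes a membrane-bending protein of endocytosis, was at 0.866 and 0.700 CPM in WT, 3.56 and 4.91 CPM in HET and 5.55, 3.39 and 11.7 CPM in KO. KO 3 was the highest library, and the carrier mean was 7.43 times the WT mean.

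A signalling subunit and a transporter were nearly absent from WT and uneven among the carriers. Inhba (ENSMAUG00000021024), the beta A subunit shared by activin A and inhibin A, was at 0.0413 and 0.0318 CPM in WT, 0.397 and 13.8 CPM in HET and 3.43, 12.6 and 2.26 CPM in KO. Slc6a7 (ENSMAUG00000009461), a proline transporter known from brain, had no counts in WT and was at 0.132 and 9.92 CPM in HET and 5.62, 1.68 and 1.18 CPM in KO. HET 2 was the carrier nearest to WT for both genes, and HET 3 was the highest. Within the carriers the highest library exceeded the lowest 34.8-fold for Inhba and 74.9-fold for Slc6a7. The carrier means of the 2 genes were at least 59.3-fold and 33.8-fold higher than the level of 3 counts per WT library. This does not hold for each carrier. HET 2 held 12 counts of Inhba and 4 counts of Slc6a7. With WT set to the level of 3 counts, the lowest carrier was 3.21 times WT for Inhba and 1.07 times for Slc6a7. Slc6a7 thus met the limit of 2 only because WT had no counts.

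Tmem132b (ENSMAUG00000015750), which encodes a transmembrane protein, had under 1 count in each WT library (0 and 0.00795 CPM) and was at 3.01 and 1.93 CPM in HET and 5.39, 3.00 and 1.18 CPM in KO. Fam110b (ENSMAUG00000013520), a gene for a centrosome-associated protein, was at 0.0413 and 0.0318 CPM in WT, 2.32 and 0.466 CPM in HET and 8.40, 5.42 and 0.574 CPM in KO. KO 1 was the highest library for both. Fam110b in HET 3 and KO 3 was far nearer to WT than in the other carriers, with an 18.0-fold spread among the 5.

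Ntpcr (ENSMAUG00000018566), which encodes a nucleoside triphosphatase, was at 0.248 and 0.223 CPM in WT, 6.82 and 3.40 CPM in HET and 0.963, 5.39 and 6.78 CPM in KO. KO 1 was the lowest carrier. CUNH3orf33 (ENSMAUG00000016143), a conserved open reading frame, was the higher member with the most reads, at 1.65 and 7.44 CPM in WT, 38.1 and 17.9 CPM in HET and 21.6, 33.6 and 19.7 CPM in KO. Its 2 WT libraries differed 4.51-fold, more than its carriers did (2.13-fold).

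Without a name, ENSMAUG00000011114 was at 0.124 and 0 CPM in WT, 6.36 and 0.967 CPM in HET and 3.31, 2.24 and 2.44 CPM in KO. ENSMAUG00000017876 was at 0.578 and 0 CPM in WT, 4.17 and 3.83 CPM in HET and 5.47, 4.83 and 3.95 CPM in KO. The latter had the narrowest range among the carriers of all 31 higher members, with the highest library 1.43 times the lowest.

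The lower members held a gene that was detected in WT alone. ENSMAUG00000009420 was at 12.3 and 6.30 CPM in WT, from 297 and 198 counts, and had 0 counts in each of the 5 carriers, where up to 3 counts per library would be allowed by a count of 0. Its WT mean was at least 89.5-fold higher than that level. Among the 8414 genes it was the only one with 3 counts or fewer in every carrier.

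Trmt6 (ENSMAUG00000008719) encodes the non-catalytic subunit of the methyltransferase that makes 1-methyladenosine in transfer RNAs, and was the member with the most reads. It was at 56.4 and 56.7 CPM in WT, 14.9 and 14.4 CPM in HET and 22.1, 21.8 and 20.0 CPM in KO. The 3 genotypes did not overlap, with HET below KO, and the libraries of each genotype lay close together (56.5 ± 0.190 CPM in WT, n = 2; 14.7 ± 0.300 CPM in HET, n = 2; 21.3 ± 1.13 CPM in KO, n = 3; SD). ENSMAUG00000017851, which has no name here, was at 8.42 and 8.62 CPM in WT, 1.32 and 0.716 CPM in HET and 0.693, 0.177 and 1.11 CPM in KO.

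**Figure D2:**
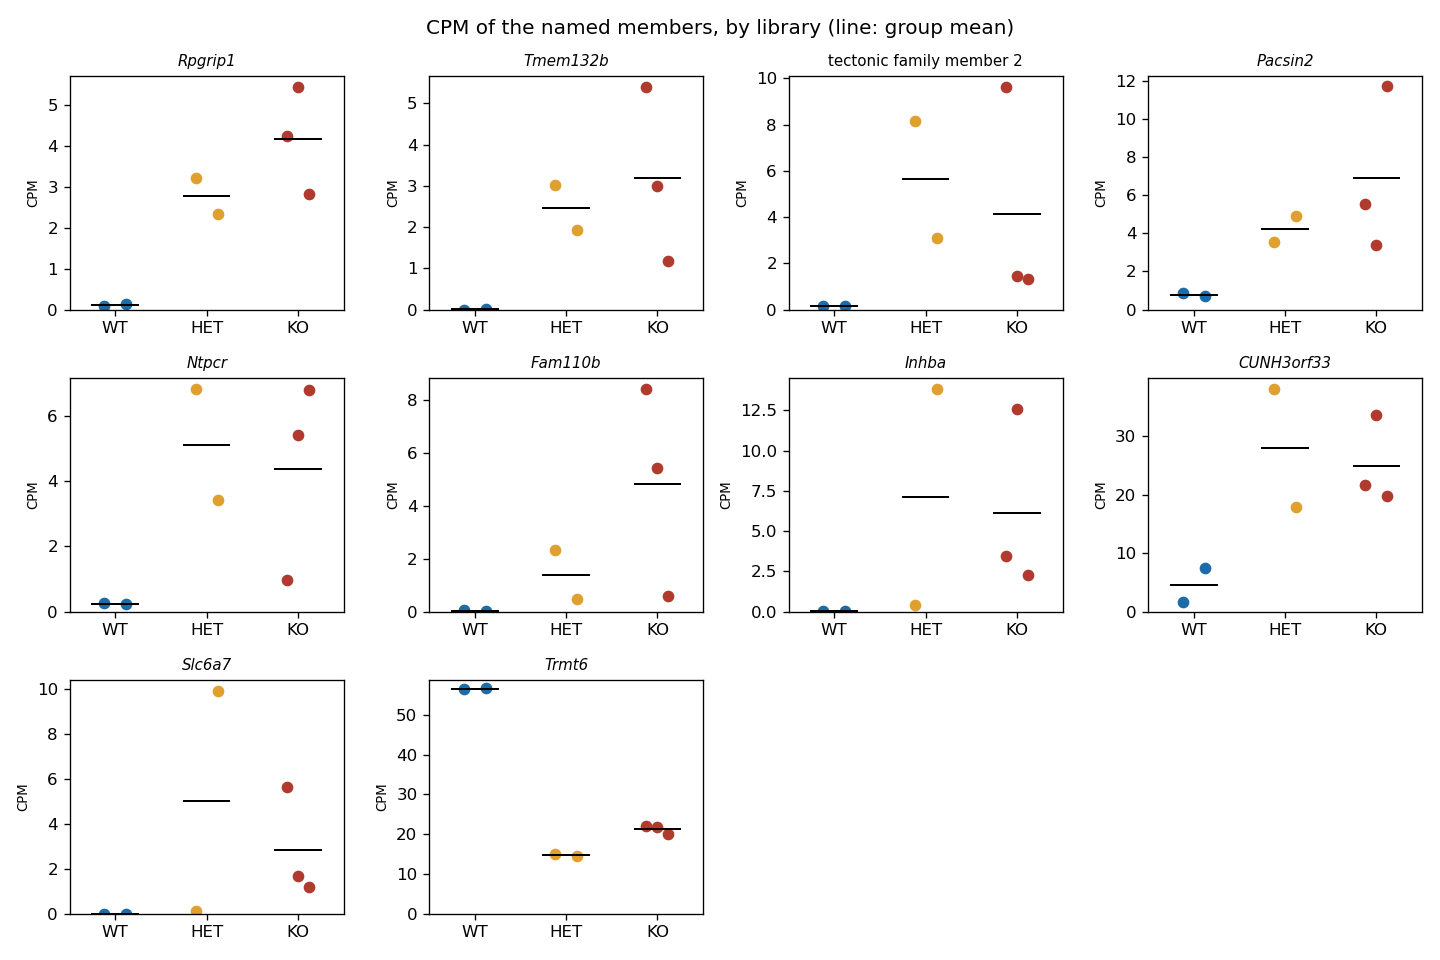
CPM of the 10 members named here in each library, by genotype; points are libraries, lines are group means, and each panel has its own y axis starting at 0. All panels but the last show both WT libraries below every HET and KO library, with wide scatter among the carriers for Inhba and Slc6a7, and Trmt6 shows tight groups with WT highest and HET lowest.

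Carriers differed among themselves more widely in the members than in most genes. The highest carrier was 1.43 to 74.9 times the lowest in the 31 higher members (median 4.25), beside a median of 2.24 over the 8332 genes with counts in every carrier. Members had fewer reads than most genes, and the part of read number in this spread was not tested. HET 3 was the highest carrier in 11 of 31 higher members (35.5%) and in 33.9% of all 8414 genes, a share near the background. KO 3 was the lowest carrier in 12 of 31 (38.7%), against 16.0% of all genes. The lower members went otherwise, with KO 3 the lowest carrier in 1 of 12 (8.33%), HET 3 the highest in 0 of 12 and KO 1 the highest in 6 of 12 (50.0%, against 19.5% of all genes). In 3 higher members a single library held over 50% of the summed carrier level, and these included Slc6a7; this was 9.68% of the higher members and 4.93% of all 8414 genes. Of the 2 WT libraries, the younger WT 2 was above WT 1 in 20 of 43 members (46.5%) and in 55.6% of all genes.

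The deposited counts divide a read over its alignments and over overlapping genes, so a value that is not whole marks shared reads. Such a value occurred in at least 1 library for 12 of 43 members (27.9%) and for 52.7% of the 8414 genes.

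The limit of 2 fell within a continuous range of values. The 2 higher members just inside it had a ratio of lowest carrier to highest WT library of 2.03 and 2.03, and the nearest genes outside were at 1.97 and 1.96. For lower members the ratios of lowest WT library to highest carrier were 2.05 and 2.17 inside and 1.99 and 1.95 outside. A further 7 genes met the limit but were in strict order over the genotypes and were left out. Of these, 5 were higher in the carriers (Lrp2, Cntn1, Pdzrn4, Epb41l1 and 1 without a name) and 2 were lower (Boll and Rhbdd1).

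Whether the members moved further from HET to KO is a comparison that did not choose them, apart from the removal of genes in strict order, which takes away those with every KO library beyond every HET library. With DESeq2 and an adjusted p below 0.01, 35 of 14954 genes tested (0.234%) differed between KO and HET, and 0 of the 43 members did, where a share at the background would amount to less than 1 gene. edgeR's quasi-likelihood test called 2 of 11220 genes and 0 members, too few calls for either count to bear on the members. At an unadjusted p under 0.05 there were 4 members by DESeq2 and 2 by edgeR, against 8.81% and 4.99% of the 8414 genes. The fitted log2 fold change of KO over HET ranged from -2.42 to 1.79 in the higher members (median -0.11). In the lower members it ranged from -0.61 to 1.36 (median 0.10). The median over the 8414 genes was -0.01. KO had the higher mean in 19 of 43 members (44.2%) and in 43.8% of all genes. A missed threshold with 2 HET and 3 KO libraries does not show that levels were alike, since standard errors in the named members reached 1.46 on the log2 scale for Slc6a7.

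The member with the smallest p was ENSMAUG00000019248, singled out after its values were seen, with 13.9 and 10.5 CPM in HET and 1.89, 2.53 and 2.22 CPM in KO (a log2 difference of -2.42 with an SE of 0.89, adjusted p = 0.328 by DESeq2). Its WT libraries were at 0 and 0.573 CPM, so HET was the highest genotype. When HET and KO libraries were fitted without WT, it was the only member called (adjusted p = 0.00487, DESeq2). For Trmt6, whose HET and KO ranges did not overlap, KO lay nearer to WT than HET did, with a log2 difference of 0.59 and an SE of 0.26 (adjusted p = 0.564 by DESeq2).

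**Figure D3:**
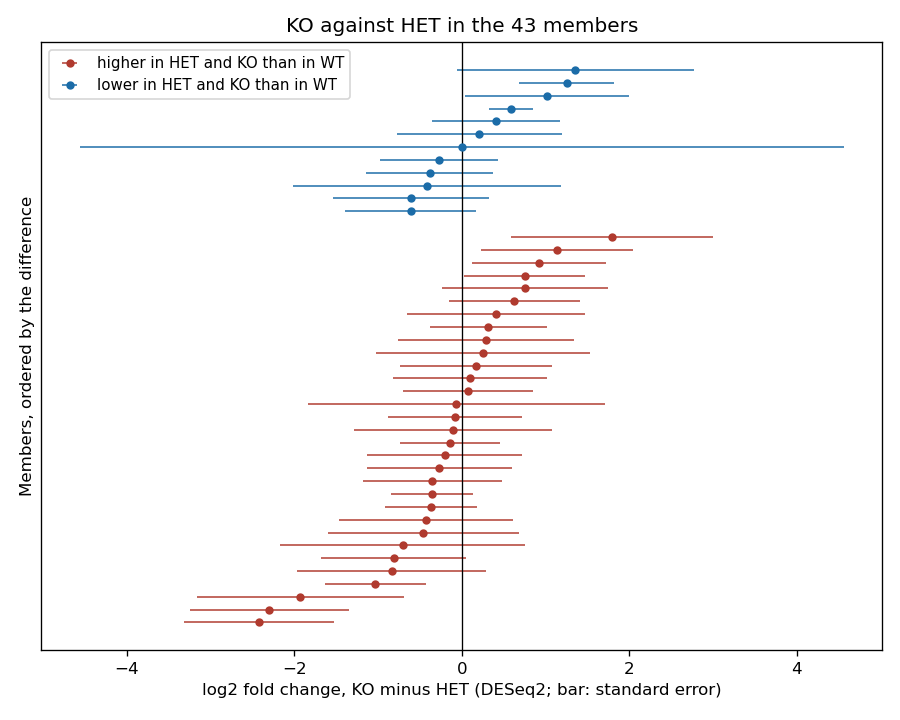
Log2 fold change of KO against HET from DESeq2 for each of the 43 members, with bars of 1 standard error; positive values are higher in KO. Values of the higher members run from -2.42 to 1.79 on both sides of 0, and the wide bar at 0 in the lower members is the gene with no counts in any carrier.

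HET and KO were also each fitted against WT, with the same 2 WT libraries in both. Log2 fold changes over WT were 2.46 ± 0.82 in HET and 3.21 ± 0.75 in KO for Pacsin2, and 4.50 ± 1.09 and 4.30 ± 1.01 for Ntpcr (SE). For Trmt6 they were -1.91 ± 0.28 and -1.33 ± 0.26. With HET and KO as 1 group against WT, DESeq2 called 41 of 10744 genes (0.382%), among them 21 of the 43 members. This contrast chose the members, so nothing is read from that count. With age as a covariate 70 of 12433 genes were called, among them 6 members, of which 3 were among the 21. edgeR called 1 of 11220 genes and 0 members.

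How far the WT pair stood apart was set beside the other 20 pairs of libraries that can be drawn from the 7, counting genes in the same way and, for this, keeping genes in strict order. The WT pair had 50 such genes, 36 lower and 14 higher in the pair. The other pairs had 13 to 65 genes (median 33). HET 3 with KO 1 had 65 genes, WT 1 with HET 3 had 64, WT 1 with KO 1 had 59 and WT 2 with HET 3 had 56, so 4 pairs of mixed genotype exceeded the WT pair. The remaining pairs of 1 genotype had 39 (the HET pair), 27, 25 and 21 genes (the KO pairs). Averaged over the 6 pairs that hold it, HET 3 gave 46.8 genes, WT 1 44.0, KO 1 41.2, WT 2 39.5 and the other libraries 25.7 to 31.3.

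The order of the pairs depended on how large a difference was asked for. With a factor of 3 in place of 2 the WT pair had 28 genes and each of the other pairs had 4 to 26. Without the genes in strict order it had 22 at that factor, and 3 other pairs had more. Genes with 3 counts or fewer in both libraries of a pair and more than 2 times that pair's level elsewhere numbered 9 for the WT pair, of which 6 were members, and 0 to 6 for the other pairs.

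**Figure D4:**
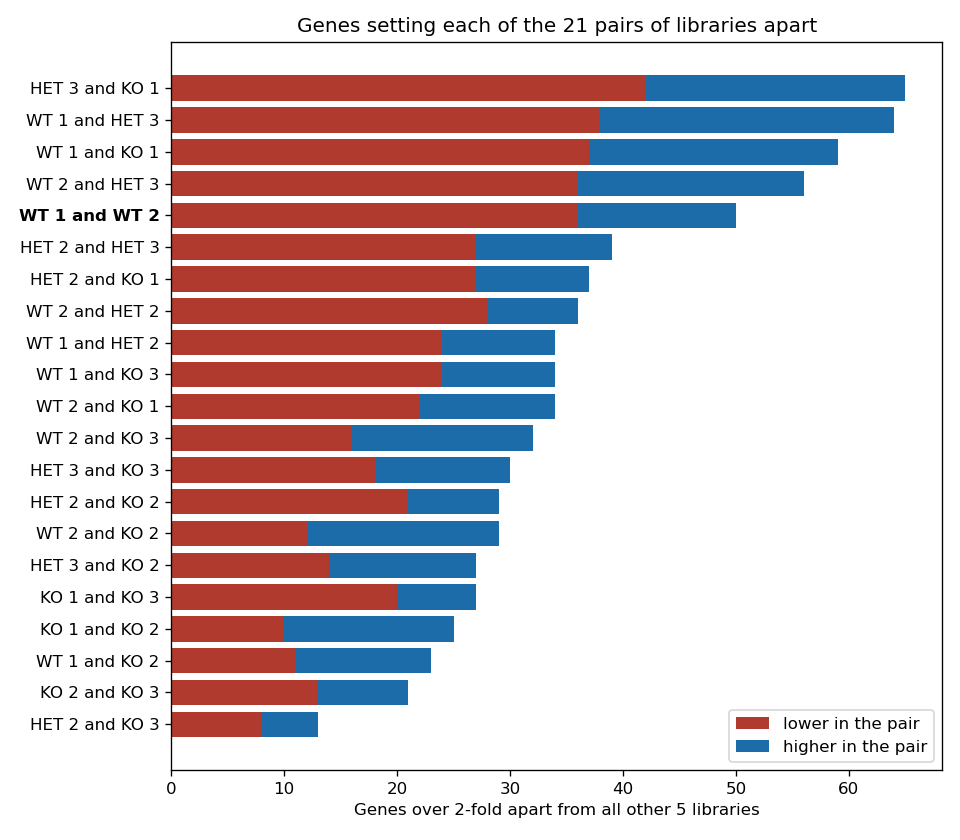
Number of genes (x axis) in which both libraries of a pair (y axis) were more than 2-fold below or above all other 5 libraries, for the 21 pairs; the WT pair is in bold and genes in strict order are kept. The WT pair, with 50 genes, stands below 4 mixed pairs with 56 to 65 genes.

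Of the 21 genes listed for the piRNA pathway, 14 could be tied to an identifier through the study's published gene lists. Members numbered 0 of these 14 and 43 of the 8414 genes, too small a share for 14 genes to show a lack. Mov10l1, 1 of the 14, was barred by the rule. DESeq2 called 0 of the 14 in either direction between KO and HET, beside 0.234% of 14954 genes. Mov10l1 itself missed this threshold (log2 fold change -1.81, adjusted p = 0.0857 by DESeq2), so the 0 does not show that levels were alike. The median log2 fold change of the 14 was -0.14, beside 0.05 over all genes tested. The PIWI gene Piwil1, whose protein binds piRNAs, was at 60.8 and 72.6 CPM in WT, 71.2 and 146 CPM in HET and 112, 119 and 122 CPM in KO. HET 2 lay between the WT libraries. Piwil3, another PIWI gene, counted over a RefSeq gene model that the authors added, was at 102 and 80.04 CPM in WT, 88.2 and 106 CPM in HET and 109, 129 and 140 CPM in KO, with the KO libraries highest. In 2 of the 14 genes the WT and carrier libraries did not overlap, beside 8.38% of the 15531 genes with a count. That background includes genes under the minimum of 2 CPM, and 2 genes are too few to compare with it. Piwil2, a PIWI gene, was at 2.06 and 5.35 CPM in WT, 0.397 and 1.22 CPM in HET and 0.202, 0.0884 and 1.29 CPM in KO. Both WT libraries were above every carrier, but its mean of 1.52 CPM and its ratio of lowest WT library to highest carrier of 1.60 missed both limits of the rule. Pnldc1, which encodes a nuclease that trims piRNA ends, was at 373 and 360 CPM in WT, 409 and 540 CPM in HET and 547, 452 and 492 CPM in KO, with every carrier higher by less than the factor of 2. Ddx4, the germ-line helicase Vasa, and Tdrd1, a Tudor-domain partner of PIWI proteins, overlapped between WT and the carriers (579 and 619 CPM in WT for Ddx4, 415 to 663 CPM in the carriers).

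Positions of the members were looked at through the order of genes in RefSeq's table for another hamster assembly, which names no chromosomes. Consecutive genes with rising start positions were taken as 1 run, on the assumption that a run lies on 1 scaffold, and every placement given here rests on that. Only 9 of 43 members (20.9%) could be placed there by name, too few for a check over the set, so that check is void. Of these, Pacsin2 stood in the run of 1444 genes that holds Mov10l1 (4.00% of 36133 genes), with 83 genes between it and Mov10l1. Tmem132b and tectonic family member 2 stood in another run, with 26 genes between them. Of the 6 named genes left out for their strict order, 4 stood in the run of Mov10l1. Cntn1 and Pdzrn4 were next to each other there, with 57 and 58 genes between them and Mov10l1, and Boll and Rhbdd1 were farther off, at 462 and 769 genes. These names came from the study's own lists, and the part of linkage to the mutant allele was not tested.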

How the data were processed

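Per the submitters' processing notes and the study's methods, the authors aligned reads with STAR 2.7.3a to the MesAur1.0 genome and counted them over Ensembl genes, with RefSeq models of Piwil3 and Tex101 added, with featureCounts 2.0.0, without strand, dividing multi-mapping and overlapping reads into fractions. The deposited values are therefore estimated counts per gene and library. CPM was the estimated count over the column total, times 1000000. Counts were rounded for DESeq2 1.42.0 (Wald test; the 3 genotypes in 1 fit for KO against HET, HET and KO as 1 level in a separate fit against WT; Benjamini-Hochberg adjustment over all genes left by DESeq2's own filters, 14954 for KO against HET and 10744 for carriers against WT); DESeq2 and the limit of an adjusted p below 0.01 follow the study's methods. edgeR 4.0.16 quasi-likelihood was an alternative. On simulated counts for KO against HET (14980 genes), 200 genes were changed by 2 on the log2 scale. These were drawn from genes above a minimum mean count that many members did not reach. The DESeq2 fit found 139 of the 200, a share that need not hold for the members. It made 31 false calls, so in that simulation the calls held more false ones than the threshold states.

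The members and gene lists were chosen with earlier results of these data known. Genes were named by a rule: members in the study's published lists, members called in KO against HET, the genes at the limit of 2 (as values), piRNA genes from the list, and the 2 leading unnamed identifiers in each direction, ranked by the gap between groups with low values set to 3 counts. ENSMAUG00000019248 and the piRNA genes given with values were picked after their values were seen. Each library is 1 animal. Chromosome positions and genome sequence were not analysed here, gene order aside, and a gene the naming rule selects is not reported here.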

Additional observations from a re-analysis of the deposited data

How the results depend on the processing

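Membership was stable to scaling: DESeq2 size factors and TMM each gave 37 higher genes, all 31 members among them, and 11 lower genes. Other limits moved the counts of higher and lower genes, to 56 and 24 with a mean of at least 1 CPM, 3 and 1 with at least 10 CPM, 58 and 49 with a factor of 1.5, and 16 and 6 with a factor of 3. Leaving out 1 library at a time gave 32 to 209 higher and 20 to 144 lower genes; without WT 1 there were 175 and 144 and without WT 2 209 and 107, since the rule then rests on 1 WT animal. Of the 31 higher members, 22 were kept without HET 2 and 22 without HET 3. Without KO 1, KO 2 and KO 3, 26, 26 and 25 of them were kept. All 31 were kept without either WT library, which the rule fixes in advance. Of the 12 lower members, 8 were kept without WT 1, 12 without HET 2 or KO 2 and 10 without each other library. Leaving out a library cannot narrow the gap between the groups. Members were therefore lost only through the minimum of 2 CPM or the strict order, so these counts do not measure how firm the gap is. KO against HET gave 53 calls at an adjusted p of 0.05, 2 with edgeR, 14 with at least 10 counts in 3 libraries, 54 (1 member) with HET and KO alone, and 11 to 158 leaving out 1 library (158 without HET 2, 49 without WT 1, 48 without HET 3, 46 without WT 2, 17 without KO 1, 14 without KO 3, 11 without KO 2), with 0 members called in each of these fits without a library. Carriers against WT gave 127 calls (34 members) at 0.05, 1 (0 members) with edgeR, 24 (12) with the count filter, 67 without Cook's filter, 70 (6) with age, and 29 to 64 (2 to 20 members) leaving out 1 library; 2 members were called without WT 1 and 5 without WT 2. A replicate block, over numbers that name different animals (correlations of same-numbered libraries -0.01 to 0.06), gave 147 calls in KO against HET and 31 calls with 11 members in carriers against WT. The causes were not tested. Among alternatives chosen after seeing the data, the number of other pairs above the WT pair was 4 with whole counts only, 3 with size factors, 3 with at least 10 CPM and 0 with a factor of 3. The number of reads was not tested as a limit on membership, and 4 of 43 members had a mean of at least 10 CPM.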
